A study of Rattus norvegicus with 60 samples.

Results

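The genes described here were 10 genes of the unfolded protein response, chosen by name and measured in 2 liver cell fractions of rats given phenobarbital or cyproterone acetate. Earlier results of these data were known when the genes were chosen, so their counts and medians beside those of all genes are descriptions. They were Hspa5, Hyou1, Sdf2l1, Creld2, Edem1, Herpud1, Xbp1, Atf4, Ddit3 and Trib3, 10 of 14217 genes tested. All 10 were on the array, the Affymetrix Rat Genome array with 31042 probe sets, through 15 probe sets: 3 for Edem1, 3 for Trib3, 2 for Hyou1 and 1 for each of the others. For each gene the probe set with the highest mean over the 60 arrays was used, and its values are log2 signals. Since each probe binds with its own strength, signals of different genes were not set against each other.

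Wistar (Han-Wistar) rats were 8 weeks old. Phenobarbital (PB), a barbiturate that activates the nuclear receptor CAR in hepatocytes, was given to animals described as male at 50 mg/kg, by a single gavage or in drinking water over 14 days, with water (H2O) as the labelled vehicle. Cyproterone acetate (CPA), a steroidal antiandrogen and progestin that activates the receptor PXR in rat liver, was given to females at 100 mg/kg by gavage, for 1 day or on 6 consecutive days, with corn oil (CO) at 10 ml/kg as vehicle. Hepatocytes (HC) and a fraction labelled mesenchymal cells (MC) were profiled at 24 h and at 14 d (PB) or 6 d (CPA). Each fraction had 9 groups: CO at 24 h with 5 arrays, CO_Co (also corn oil at 24 h, with labels that do not say how it differs from CO) with 4, and the remaining groups with 3. The labels do not say whether arrays of a group came from separate animals, so p-values measure the spread between these arrays, which may in part be technical. Since PB groups were male and CPA groups female, the compounds were each set against their own vehicle only.

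The unfolded protein response is the programme by which a cell answers unfolded protein in the endoplasmic reticulum (ER), the compartment where secreted proteins such as those of the liver are folded. ATF6 and the spliced product of Xbp1 raise ER chaperones and the machinery that removes misfolded proteins, while the kinase PERK slows translation and favours synthesis of ATF4, which raises Ddit3 (CHOP) and Trib3. Genes of the first kind are called the chaperone arm below (Hspa5, Hyou1, Sdf2l1, Creld2, Edem1 and Herpud1), and Trib3 with Ddit3 the Trib3/Ddit3 arm. The array reads total Xbp1 transcript, not its splicing, and it reads mRNA of Atf4, whose protein is mainly set by translation.

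Facts of the libraries that bear on these genes were as follows. Array medians lay between 3.25 and 3.39 in HC and between 3.39 and 3.44 in MC. In HC the albumin probe set, Alb, ranged from 13.84 to 13.87 in the vehicle arrays. The MC fraction was of mixed make-up: in its vehicle arrays Clec4f (Kupffer cells) ranged from 11.40 to 12.42, Lyve1 (sinusoidal endothelium) from 11.76 to 12.71 and Col3a1 (fibrogenic mesenchymal cells) from 7.05 to 10.75, and Alb was still at 12.11 to 13.84. The mean of 16 hepatocyte marker genes lay between 6.60 and 10.19 in the MC arrays of CO 24 h, against 11.89 ± 0.07 (SD, n = 5) in HC. A change in bulk RNA of either fraction can come from fewer cells of a type or from less RNA per cell, and these cannot be told apart. Replicate 3 of the 24 h PB and H2O groups was labelled female in both fractions, yet the mean of Y-linked genes on these 4 arrays (6.87 to 7.11) lay within the range of the male arrays (5.77 to 7.14) and above the other female arrays (3.82 to 4.70). No sex term was therefore used.

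Motifs of this pathway stand in the promoters of several of these genes, and they are shown because they are the sequences through which ATF6, XBP1 and ATF4 are known to act. All 10 genes had a promoter of 300 bases in the RefSeq table for GRCr8 (250 before to 50 after the annotated start). On both strands, the ER stress response element ERSE (CCAAT, 9 bases of any kind, then CCACG) matched 22 of 33469 rat promoters (0.0657%), ERSE-II (ATTGG, any base, then CCACG) matched 17 (0.0508%), the core of the UPR element (TGACGTG) 605 (1.81%), and the CEBP-ATF element CARE (TGATGNAA) 1332 (3.98%). ERSE was found in Hspa5, Creld2 and Xbp1, ERSE-II at 2 places in Hyou1 and at 1 in Herpud1, and CARE in Trib3 and Herpud1. The UPR element core was found in Hspa5 and in Hyou1, where it overlaps the first ERSE-II. These letters are not in this window for Sdf2l1, Edem1, Atf4 and Ddit3, nor for a second annotated start of Hyou1. Each line below gives bases in the direction of the gene, with the matches named on that line in capitals. The UPR element core of Hyou1 is not among those named. A match on the opposite strand reads as its reverse complement.
Hspa5, chr3:38452766-38453065, + strand, with the UPR element core at -135 to -129 and ERSE at -43 to -25: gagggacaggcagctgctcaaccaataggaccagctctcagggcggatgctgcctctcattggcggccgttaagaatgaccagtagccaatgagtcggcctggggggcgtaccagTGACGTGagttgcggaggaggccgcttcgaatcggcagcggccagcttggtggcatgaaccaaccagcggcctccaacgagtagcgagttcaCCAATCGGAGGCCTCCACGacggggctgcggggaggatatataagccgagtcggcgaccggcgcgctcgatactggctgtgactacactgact
Xbp1, chr14:84604546-84604588, + strand, ERSE at -65 to -47: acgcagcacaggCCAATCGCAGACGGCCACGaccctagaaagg
Creld2, chr7:121789227-121789269, + strand, ERSE on the opposite strand at -145 to -127: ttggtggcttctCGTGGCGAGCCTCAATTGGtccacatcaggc
Hyou1, chr8:53602682-53602716, + strand, ERSE-II on the opposite strand at -188 to -178: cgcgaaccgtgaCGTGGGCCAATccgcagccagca
Hyou1, chr8:53602782-53602816, + strand, ERSE-II on the opposite strand at -88 to -78: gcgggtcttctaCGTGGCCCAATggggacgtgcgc
Herpud1, chr19:10614809-10614843, - strand, ERSE-II at -124 to -114: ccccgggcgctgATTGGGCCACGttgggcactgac
Trib3, chr3:161275535-161275566, - strand, CARE on the opposite strand at -21 to -14: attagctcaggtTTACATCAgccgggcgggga

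In vehicle-treated rats the chaperone arm and Trib3 read higher in hepatocytes than in the MC fraction, while Atf4 and Ddit3 read lower. Averaged with equal weight over the CO 24 h, CO 6 d, H2O 24 h and H2O 14 d groups, 9 of 10 genes differed at an adjusted p under 0.05 (limma, Benjamini-Hochberg adjustment over 14217 genes), 7 higher and 2 lower. Among all genes 81% were called in this contrast, 47.6% higher and 33.4% lower, so the count itself is near the background. The median difference of the 10 genes was 0.97 on the log2 scale against 0.13 for all genes.
Of the chaperones, Hspa5 (BiP, the main ER HSP70) was higher in HC by 0.89 (SE 0.12, adjusted p = 1.27e-08, limma), and Hyou1, an HSP110-type partner of BiP, by 1.32 (SE 0.11). Creld2, an ER protein with disulfide isomerase activity, was higher by 1.23 and Sdf2l1, a cofactor that keeps unfolded proteins from aggregating, by 0.61. The degradation genes followed the same direction. Edem1, a mannosidase-like protein that hands misfolded glycoproteins to degradation, was higher by 1.71, or 3.28-fold, and Herpud1, a membrane component of the ubiquitin ligase complex for ER proteins, by 1.11. Trib3, a pseudokinase induced by ATF4 and CHOP, was higher in HC by 1.05 (SE 0.15).
In the opposite direction, Atf4 was lower in HC by 1.07 (difference -1.07, SE 0.16, adjusted p = 5.77e-08, limma) and Ddit3, the transcription factor CHOP, by 1.03 (difference -1.03, SE 0.16, adjusted p = 2.17e-07). Xbp1 did not pass the test (0.13, adjusted p = 0.262). Within single vehicle groups, Xbp1 was higher in HC by 0.78 at H2O 24 h (adjusted p = 0.00352, limma), where all 3 HC arrays lay above all 3 MC arrays, and its difference was -0.23, 0.03 and -0.06 in the CO 24 h, CO 6 d and H2O 14 d groups. Atf4 and Ddit3 were lowest relative to MC in the CO 24 h, H2O 24 h and H2O 14 d groups (Atf4 -1.19, -1.43 and -1.21, Ddit3 -1.33, -1.10 and -1.32). In the CO 6 d group neither passed the test (-0.44, adjusted p = 0.255, and -0.37, adjusted p = 0.360, limma).

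**Figure D1:**
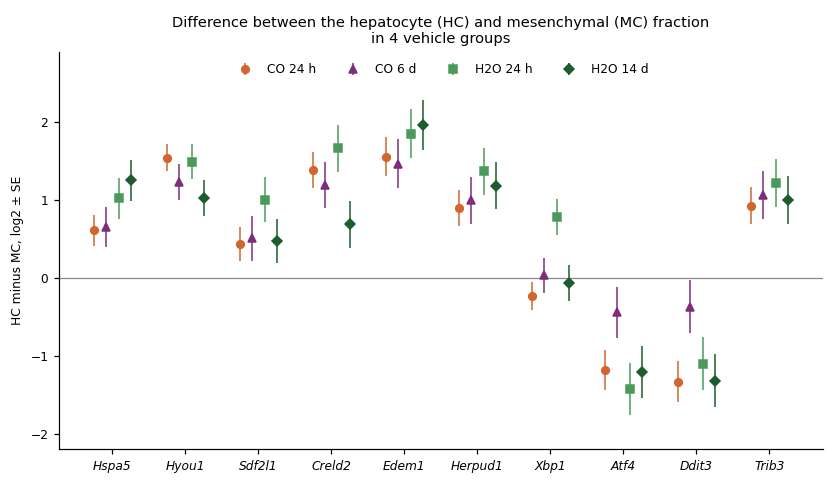
Difference in log2 signal between the hepatocyte (HC) and MC fraction for each of the 10 genes in each of 4 vehicle groups; points are HC minus MC with the standard error of the limma fit. The chaperone arm genes and Trib3 lie above 0 in every group, Atf4 and Ddit3 below 0, and Xbp1 is clearly above 0 at H2O 24 h alone (0.78).

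With a term for labelled sex in the fit the calls of Sdf2l1 (0.40, adjusted p = 0.222, limma) and Ddit3 (-0.31, adjusted p = 0.422) were lost. This term, here and below, rests only on replicate 3 of the 24 h PB and H2O groups. Since Y-linked genes on those arrays read at male level, it cannot show an effect of sex. MC arrays carried hepatocyte transcripts, and the part of this in the differences was not tested. Immediate early genes, which respond to handling of cells, also differed between fractions: 14 of 16 were lower in HC, with Fos at 5.69 in HC and 11.56 in MC; its part in the values of Atf4 and Ddit3 was not tested.
Most other ER folding and degradation genes measured were also higher in HC. Of 16 other ER folding proteins 14 were higher in HC and 0 lower, led by Pdia4 (2.33), Dnajc3 (2.29) and Sil1 (1.80). Of 14 other degradation and translocation genes 11 were higher and 1 lower, with Derl2 higher by 2.50. Of 27 other ATF4 and CHOP targets 14 were higher and 8 lower, shares near those of all genes, among them Fgf21 (1.94) and Atf3 (-2.43).

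**Figure D2:**
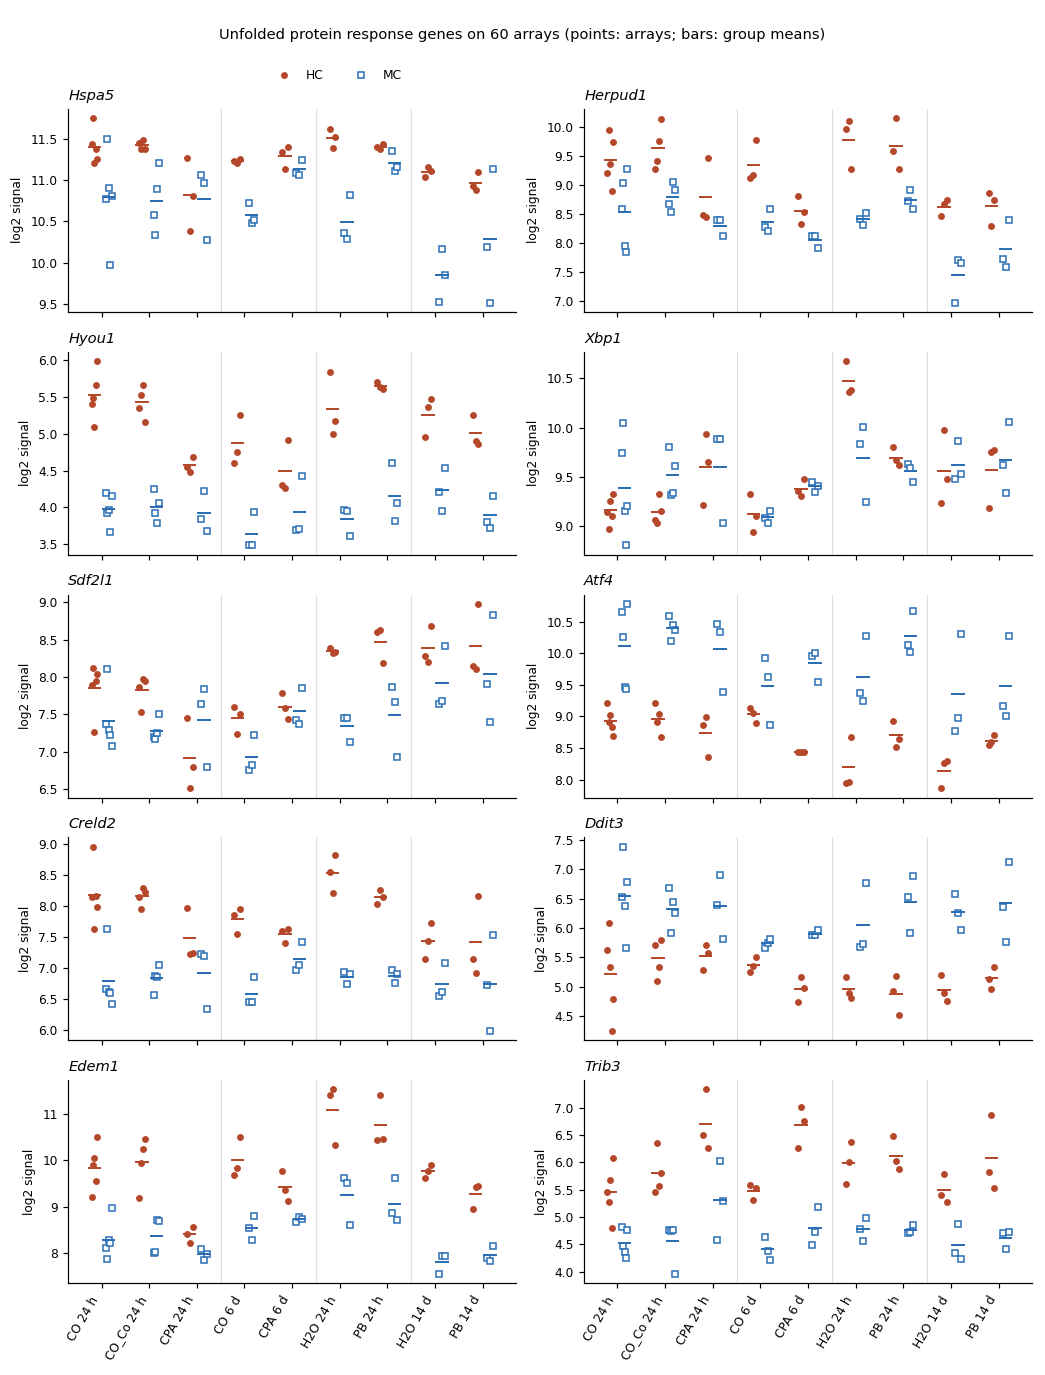
Log2 signal of the 10 genes on every array of HC (filled circles) and MC (open squares) in the 9 groups of each fraction; short bars are group means. In hepatocytes Edem1 and Hyou1 of all 3 CPA 24 h arrays lie below all 5 CO 24 h arrays, and Trib3 of all CPA arrays lies above its CO arrays at both times.

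In hepatocytes 24 h after CPA, 5 of the 6 chaperone arm genes fell while Trib3 rose. Of the 10 genes 7 passed the test, 5 lower and 2 higher, where 34.2% of all genes were called, 11.7% lower and 22.5% higher. The median change was -0.61 against -0.01 over all genes. The groups did not overlap for Edem1 and Hyou1 (lower; 13.5% of all genes) and for Trib3 (higher; 23.5%).
The deepest change was in Edem1. Its 5 CO arrays read 9.21, 9.90, 10.05, 9.56 and 10.50, and its 3 CPA arrays 8.41, 8.22 and 8.56. Every CPA array was below every CO array. The means were 9.84 ± 0.49 (SD, n = 5) and 8.40 ± 0.17 (SD, n = 3), a change of -1.45 (SE 0.30, adjusted p = 4.25e-04, limma), which is 2.73-fold lower. The other 2 probe sets of Edem1 differed by -1.52 and -1.45 without overlap of the groups.
Hyou1 read 5.41, 5.49, 5.09, 5.66 and 5.99 in CO and 4.55, 4.48 and 4.69 in CPA. The CPA arrays were again all lower, and the change was -0.95 (SE 0.20, adjusted p = 4.74e-04, limma). The dimmer probe set of Hyou1 differed by -0.22 with overlapping groups. Its mean over the 60 arrays was 2.68, below the array medians.
Sdf2l1 read 7.90, 8.12, 7.26, 7.95 and 8.04 in CO and 7.45, 6.51 and 6.80 in CPA. CO replicate 3 lay below CPA replicate 1, so the groups overlapped, with a change of -0.94 (SE 0.21, adjusted p = 8.36e-04, limma). Hspa5 read 11.43, 11.75, 11.20, 11.38 and 11.26 in CO and 11.27, 10.38 and 10.81 in CPA, a change of -0.59 (SE 0.14, adjusted p = 0.00119). Only CPA replicate 1 fell within the range of CO.
Creld2 read 8.14, 8.96, 7.64, 8.16 and 7.99 in CO and 7.98, 7.24 and 7.24 in CPA, where replicate 1 lay inside the CO range and the other arrays below it. Its change of -0.69 (SE 0.25, adjusted p = 0.0303, limma) rested on single arrays: without CO replicate 2 it was -0.50 (adjusted p = 0.100), and without CPA replicate 2 or 3 it was -0.57 (adjusted p = 0.160 and 0.139). Centring the array medians also ended this call (-0.63, adjusted p = 0.0513).
Herpud1, the remaining gene of the arm, did not pass the test (-0.64, SE 0.27, adjusted p = 0.0679, limma). It read 9.21, 9.95, 9.36, 8.89 and 9.75 in CO and 8.48, 8.45 and 9.46 in CPA, where replicate 3 stood at the level of CO. Without that array the change was -0.97 (adjusted p = 0.00922), without CO replicate 4 it was -0.77 (adjusted p = 0.0293), and with both corn oil groups as control it was -0.73 (adjusted p = 0.0175).
Trib3 moved the other way. It read 5.45, 5.28, 5.68, 4.81 and 6.09 in CO and 6.50, 7.33 and 6.25 in CPA. All CPA arrays were above all CO arrays, and the change was 1.23 (SE 0.29, adjusted p = 0.00148, limma), or 2.35-fold. An array of the further corn oil group CO_Co, at 6.36, lay above the lowest CPA array. The other 2 probe sets of Trib3 differed by 1.79 and 1.40 from CO, again without overlap.
Ddit3, the other gene of that arm, did not pass the test (0.30, SE 0.26, adjusted p = 0.405, limma). Its CO arrays were wide apart, at 5.63, 6.09, 5.34, 4.24 and 4.79, and its CPA arrays at 5.28, 5.71 and 5.57 lay inside that range.
Of the transcription factors upstream, Xbp1 rose by 0.44 (SE 0.16, adjusted p = 0.0366, limma), from 9.14, 8.97, 9.26, 9.10 and 9.33 to 9.22, 9.93 and 9.65. The call was lost without CPA replicate 2 (0.27, adjusted p = 0.296), without CPA replicate 3 (0.41, adjusted p = 0.105), and without CO replicate 1, 2 or 4 (adjusted p from 0.0560 to 0.0819). Atf4 did not pass the test (-0.19, adjusted p = 0.403), from 8.93 ± 0.19 (SD, n = 5) to 8.74 ± 0.34 (SD, n = 3). Of the genes with ERSE in the promoters printed above, Hspa5 and Creld2 were called lower and Xbp1 higher. Motifs were not tested against these changes.
The means of the arms were -0.87 for the 6 chaperone arm genes and 0.77 for Trib3 with Ddit3, a difference of -1.64. On the 3 CPA arrays the chaperone mean was -0.68, -1.16 and -0.78 relative to the CO mean and the Trib3/Ddit3 mean was 0.55, 1.18 and 0.57. CPA replicate 2 had both the lowest chaperone mean and the highest Trib3/Ddit3 mean. Without any one array, with all probe sets averaged or with pooled corn oil groups the difference lay between -1.85 and -1.29.

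**Figure D3:**
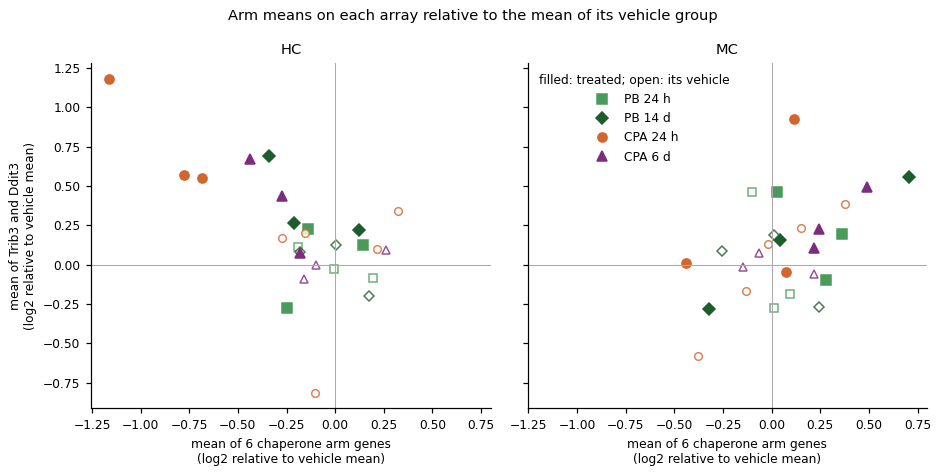
Mean change of Trib3 and Ddit3 (vertical) against mean change of the 6 chaperone arm genes (horizontal), each array relative to its vehicle mean on the log2 scale, in HC (left) and MC (right); filled symbols are treated arrays and open ones their vehicle arrays. The 3 CPA 24 h hepatocyte arrays sit at the upper left, with chaperone means from -1.16 to -0.68.

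Beyond the 10 genes, other ER folding proteins moved with the chaperone arm 24 h after CPA in hepatocytes. Of 16 measured, 14 were lower and 0 higher, with a median of -0.58. Examples are Sil1, the nucleotide exchange factor of BiP (-1.69, adjusted p = 3.86e-08, limma), and the disulfide isomerases Pdia6 (-1.13) and Pdia3 (-1.06). Of 14 other degradation and translocation genes 4 were lower and 1 higher, with Sel1l, the scaffold of the ERAD ligase, at -1.71 (adjusted p = 5.82e-09), the lectin Os9 at -0.92 and the lectin Erlec1 at -0.76. Among 6 sensor genes, Atf6 was lower by 0.87 (change -0.87, adjusted p = 1.68e-04) and Eif2s1, the translation factor that PERK phosphorylates, was higher by 1.32.
Of the 27 other ATF4 and CHOP targets 10 were higher, 2 lower and 15 not called, where 22.5% of all genes were higher and 11.7% lower. Slc3a2, the heavy chain of amino acid transporters, rose by 1.75 (adjusted p = 1.32e-08, limma), while Nupr1 (-1.30), a stress-induced chromatin protein, and Cth (-1.08), an enzyme of cysteine synthesis, fell. Cytosolic heat shock genes also rose, 7 of 8, led by Hspb1 at 3.07. Hepatocyte markers were lower on average in the same arrays (11.55 ± 0.09, SD, n = 3, against 11.89 ± 0.07, SD, n = 5), 8 of 16 called lower and 1 higher, and the part of this in the values of the 10 genes was not tested.

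**Figure D4:**
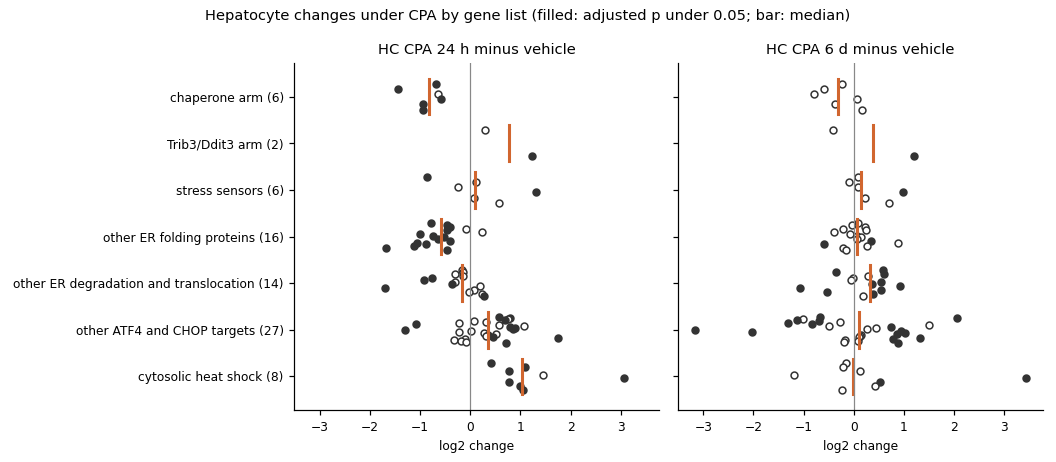
Log2 change under CPA in hepatocytes at 24 h (left) and 6 d (right) for the genes of 7 lists, with the number of genes in brackets; each point is a gene, filled where the adjusted p was under 0.05, and orange bars are list medians. At 24 h 14 of 16 folding proteins are filled to the left of 0 (median -0.58) and the heat shock genes to the right (median 1.02), and at 6 d both medians are near 0.

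After 6 consecutive days of CPA, Trib3 was again higher in hepatocytes, Atf4 was lower, and no gene of the chaperone arm passed the test. Of the 10 genes 2 were called, 1 in each direction, where 24.2% of all genes were called (15% higher and 9.29% lower).
Trib3 read 5.59, 5.31 and 5.53 in CO and 6.27, 7.01 and 6.75 in CPA. The groups were apart, with a change of 1.20 (SE 0.33, adjusted p = 0.00738, limma), or 2.29-fold, and the other probe sets differed by 1.77 and 1.27.
Atf4 read 9.14, 9.06 and 8.90 in CO and 8.44, 8.43 and 8.44 in CPA. All CPA arrays were lower, and the change was -0.59 (SE 0.19, adjusted p = 0.0194, limma). Without CO replicate 1, CO replicate 2 or CPA replicate 2 the adjusted p was 0.0652, 0.0572 and 0.0513.
Ddit3 read 5.25, 5.36 and 5.51 in CO and 4.74, 5.17 and 4.97 in CPA. Its groups also did not overlap, yet the change of -0.41 did not pass the test (adjusted p = 0.344, limma). Herpud1 read 9.12, 9.17 and 9.77 against 8.81, 8.32 and 8.53, a change of -0.80 just outside the threshold (SE 0.30, adjusted p = 0.0519). It passed in 7 of 12 alternatives, for example without CO replicate 1 (adjusted p = 0.0492) or CPA replicate 1 (adjusted p = 0.0490). Non-overlap in the lower direction, as seen for Atf4, Ddit3 and Herpud1, held for 18.8% of all genes, and in the higher direction, as for Trib3, for 23.7%.
None of the chaperones passed the test, and they differed in size and sign. Hspa5 read 11.23, 11.21 and 11.25 in CO and 11.35, 11.13 and 11.40 in CPA, a difference of 0.06. Sdf2l1 differed by 0.16, Creld2 by -0.24, Hyou1 by -0.38, Edem1 by -0.59 and Xbp1 by 0.25, with adjusted p-values from 0.230 to 0.822 (limma) and overlapping groups. Edem1 passed with weights for array quality (-0.79, adjusted p = 0.0345). The arm means were -0.30 and 0.39, a difference of -0.69, and on single CPA arrays the chaperone mean ranged from -0.44 to -0.18. The 0.39 averages Trib3 (1.20) and Ddit3 (-0.41), which went in opposite directions. Between HC vehicle groups the arm difference was -0.34 for CO 6 d minus 24 h. It was -0.27 for CO_Co minus CO at 24 h and -0.41 for H2O 14 d minus 24 h.
Of 16 other folding proteins 1 rose (P4hb, 0.35) and 1 fell (Pdia4, -0.59). Degradation and translocation genes were 7 higher and 3 lower of 14, with Sec61g, a subunit of the translocon, at 0.92 and Sel1l at -1.07. Among ATF4 and CHOP targets 8 rose and 7 fell. Asns, the asparagine synthetase, rose by 2.06 from a signal of 2.87 (adjusted p = 1.20e-05, limma), while Nupr1 fell by 3.18 and Ppp1r15a (GADD34), which reverses the translational block, fell by 2.04. Immediate early genes were lower too, 6 of 16, with Dusp1 at -2.53. Kupffer cell markers averaged 6.37 in these CPA arrays against 5.18 in CO, and cholangiocyte markers 3.88 against 3.18. Hepatocyte markers averaged 11.63 against 11.90, 5 of 16 called lower and 1 higher, and were lower on each CPA array than on each CO array. The part of any of these in the values of the 10 genes was not tested.

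The CPA effect itself differed between the times for 2 of the 10 genes in hepatocytes, where 14.5% of all genes were called, 6.82% higher and 7.7% lower. The effect on Sdf2l1 was 1.09 higher at 6 d than at 24 h (SE 0.31, adjusted p = 0.0189, limma) and that on Hspa5 was 0.65 higher (SE 0.20, adjusted p = 0.0326). For Edem1 the difference was 0.86 (adjusted p = 0.237), for Hyou1 0.57 (adjusted p = 0.234) and for Trib3 -0.04 (adjusted p = 0.974). Sdf2l1 lost the call without CO 6 d replicate 2 (adjusted p = 0.0549), CPA 24 h replicate 2 (adjusted p = 0.0796) or CPA 6 d replicate 1 (adjusted p = 0.0537). Hspa5 lost it without any of 8 arrays of the 14, CO 24 h replicate 2, CO 6 d replicates 1, 2 and 3, CPA 24 h replicates 2 and 3 and CPA 6 d replicates 1 and 3, with adjusted p-values from 0.0535 to 0.148. Of the 16 other folding proteins 8 had a higher effect at 6 d and 1 a lower one, with Pdia3 at 1.94, Sil1 at 1.48 and Pdia6 at 1.39.

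In the MC fraction none of the 10 genes passed the test under CPA at either time. At 24 h 2.54% of all genes were called there, and at 6 d 2.23%. An unadjusted p under 0.05 (limma) was found for 1 and 0 of the 10 genes, and for 1933 and 1374 of all 14217. The gene nearest to a call was Trib3 at 24 h, which read 4.82, 4.46, 4.37, 4.25 and 4.76 in CO and 4.59, 6.03 and 5.29 in CPA. CPA replicates 2 and 3 were above every CO array and replicate 1 was not, and the difference was 0.77 (SE 0.24, adjusted p = 0.0936). Without CPA replicate 1 it was 1.13 (adjusted p = 0.00442), with both corn oil groups pooled 0.76 (adjusted p = 0.0359), and over the mean of its 3 probe sets 0.94 (adjusted p = 0.0152).
Differences of the chaperone arm in MC at 24 h were -0.02 for Hspa5, -0.06 for Hyou1, 0.01 for Sdf2l1, 0.14 for Creld2, -0.32 for Edem1 and -0.24 for Herpud1. At 6 d, Hspa5 (0.56), Sdf2l1 (0.61) and Creld2 (0.56) read above all CO arrays on all 3 CPA arrays, as did Xbp1 (0.31) and Ddit3 (0.16), and Herpud1 (-0.31) read below. Non-overlap of this kind held for 13.3% of all genes in the higher and 8.94% in the lower direction. Sdf2l1, for example, read 6.76, 6.82 and 7.23 in CO and 7.43, 7.37 and 7.85 in CPA. Its adjusted p was 0.582 (limma). CPA 6 d replicates 1 and 2 in MC were much alike. Hepatocyte markers averaged 8.58 and 8.59 and Kupffer cell markers 10.47 and 10.49, against 10.11 and 10.84 in replicate 3. The labels do not say whether replicates 1 and 2 are separate preparations, so non-overlap here may rest on fewer of them than arrays. Between the times the CPA effect in MC differed for 0 of 10 genes (0.506% of all genes called, 0.478% higher and 0.0281% lower). The unadjusted p of this contrast was under 0.05 (limma) for 0 of the 10 genes and for 907 of all 14217.
A direct test of the CPA effect in HC minus that in MC called 1 of the 10 genes at 24 h, where 8.43% of all genes were called. Hyou1 in MC read near the array medians of that fraction (3.39 to 3.44), with means of 3.98 in CO 24 h and 3.92 in CPA 24 h. Low signals are compressed, so a fall in MC could be understated, which was not tested. The effect on Hyou1 was lower in HC by 0.89 (difference -0.89, SE 0.29, adjusted p = 0.0433, limma). The call was lost over the mean of the 2 probe sets (-0.54, adjusted p = 0.0562), with centred arrays (-0.82, adjusted p = 0.0632) and without any of 10 arrays out of 16 (adjusted p up to 0.146), namely CO 24 h replicates 2, 4 and 5 and CPA 24 h replicates 1 and 2 in HC, and CO 24 h replicates 2, 3 and 4 and CPA 24 h replicates 1 and 2 in MC. The difference was -1.13 for Edem1 (adjusted p = 0.0743), -0.94 for Sdf2l1 (adjusted p = 0.105) and 0.46 for Trib3 (adjusted p = 0.558). Edem1 passed in 7 of 23 alternatives: over the mean of its 3 probe sets (-1.29, adjusted p = 0.00345), with the replicate block (adjusted p = 0.0133), array weights (0.0206), pooled corn oil groups (0.0256) or a sex term (0.0398), and without HC CO 24 h replicate 1 (0.0356) or MC CO 24 h replicate 5 (0.0348). Sdf2l1 also passed in 7 of 23: with array weights (adjusted p = 0.00610), the replicate block (0.0153) or pooled corn oil groups (0.0345), and without HC CO 24 h replicate 3, MC CO 24 h replicate 2, HC CPA 24 h replicate 1 or MC CPA 24 h replicate 3 (0.0260 to 0.0496). With the replicate block, which HC and MC arrays of a number share, Creld2 passed too (-0.83, adjusted p = 0.0319), so that 4 of the 10 genes were called in place of 1. The 8.43% above belongs to the fit without the block. The share of all genes called with the block is not given here, so the 4 has no background beside it. Same-numbered HC and MC arrays deviated together in all 5 pairs of CO 24 h (r from 0.14 to 0.29) and, for CPA 24 h, with r of 0.092, 0.35 and 0.21. At 6 d 0 of 10 were called (4.58% of all genes), and the largest differences in size were -0.96 for Atf4 (adjusted p = 0.324) and 0.81 for Trib3 (adjusted p = 0.393). The mean of hepatocyte markers on the MC arrays at 24 h ranged from 8.34 to 10.17 with CPA and from 6.60 to 10.19 with CO.

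PB did not change any of the 10 genes past the threshold in either fraction or at either time.

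**Figure D5:**
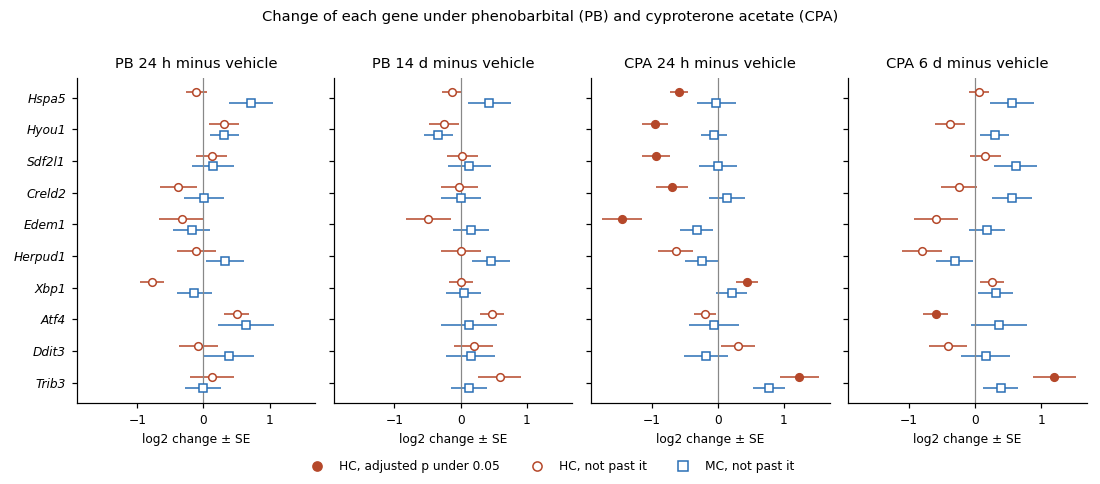
Log2 change against vehicle with the standard error of the limma fit for the 10 genes under PB and CPA at each time, in HC (circles) and MC (squares); filled symbols have an adjusted p under 0.05. Filled symbols are found under CPA in HC alone, 7 at 24 h and 2 at 6 d.

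Few genes in all were called under PB in hepatocytes, 0.0774% at 24 h (0.0281% higher and 0.0492% lower) and 0.0633% at 14 d (0.0422% higher and 0.0211% lower). In MC the share was 0% at 24 h and 18.4% at 14 d (9.36% higher and 9.02% lower). By unadjusted p under 0.05 (limma), the count of the 10 genes was 2 in HC at 24 h, 1 in HC at 14 d, 1 in MC at 24 h and 0 in MC at 14 d. Over all 14217 genes the same counts were 986, 1576, 446 and 5017.
The smallest p at 24 h in hepatocytes belonged to Xbp1. It read 10.68, 10.37 and 10.38 with water and 9.80, 9.67 and 9.62 with PB. The groups were apart, as for 6.34% of all genes in that direction, and the difference was -0.78 (SE 0.18, unadjusted p = 2.13e-04, adjusted p = 0.108, limma). Water at 24 h was the group with the highest Xbp1 in hepatocytes, and the PB arrays read near water at 14 d (9.23, 9.97 and 9.48). With weights for array quality the adjusted p was 0.0126.
Atf4 read 7.95, 7.96 and 8.68 with water and 8.93, 8.51 and 8.65 with PB at 24 h, a difference of 0.50 with overlapping groups (adjusted p = 0.541, limma). At 14 d it read 7.86, 8.27 and 8.29 against 8.55, 8.59 and 8.71, a difference of 0.48 (adjusted p = 0.323). There all PB arrays were higher, as for 5.22% of all genes.
Among the chaperone arm in hepatocytes at 24 h, differences ranged from -0.38 (Creld2) to 0.31 (Hyou1). At 14 d they ranged from -0.49 (Edem1) to 0.02 (Sdf2l1). Edem1 read 9.62, 9.77 and 9.90 with water and 8.95, 9.42 and 9.45 with PB, without overlap (4.16% of all genes in that direction) and with an adjusted p of 0.626 (limma). Trib3 differed by 0.13 at 24 h and by 0.59 at 14 d (adjusted p = 0.515, limma), the latter with PB replicate 2 at 6.86 and the others at 5.83 and 5.54. Its other 2 probe sets differed at 14 d by 0.58 with overlapping groups and by 1.27 with every PB array above water. The means of the latter were 5.00 with PB and 3.73 with water.
In MC at 24 h Hspa5 read 10.36, 10.29 and 10.81 with water and 11.35, 11.11 and 11.16 with PB, a difference of 0.72 (SE 0.33, adjusted p = 0.999, limma) without overlap (6.84% of all genes). Weights for array quality gave an adjusted p of 0.0224. Herpud1 also lay above water on all 3 PB arrays (0.33). In MC at 14 d differences ranged from -0.34 (Hyou1) to 0.46 (Herpud1), all with overlapping groups. The hepatocyte marker mean there was 8.32 ± 0.76 (SD, n = 3) with PB and 10.01 ± 0.17 (SD, n = 3) with water. With this mean as a covariate in the MC fit, none of these genes was called either. Its part in the size of each difference was not tested further.
Same-numbered PB and water arrays at 14 d deviated together, which alone does not settle that the numbers pair animals. With the number as a block, 0 of the 10 genes were called in HC and 0 in MC, while 35 and 4630 genes were called over all genes in place of 9 and 2614. For the PB effect at 14 d between fractions, where HC and MC arrays of a number also deviated together, the block called 0 of the 10 genes, and 2308 genes in place of 1441. Tests of the PB effect between fractions (0% of all genes called at 24 h and 10.1% at 14 d) and between times (0.0352% in HC, 0.0211% higher and 0.0141% lower, and 0.00703% in MC) called 0 of the 10 genes. The unadjusted p was under 0.05 (limma) for 1 of 10 at 24 h and 0 of 10 at 14 d between fractions, and for 1 of 10 between times in each fraction. Of all 14217 genes it was so for 614 and 3756 between fractions, and for 1343 (HC) and 1482 (MC) between times. The largest of these differences was -0.82 for Hspa5 between fractions at 24 h (unadjusted p = 0.0297, limma, not called).

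The vehicle groups themselves were compared because treated and vehicle arrays of different times did not share a level. The 2 corn oil groups at 24 h did not differ for any of the 10 genes at the threshold (0.0703% of all genes called in HC and 0% in MC). The unadjusted p was under 0.05 (limma) for 0 of 10 in either, and for 548 (HC) and 384 (MC) of all 14217 genes. Differences of CO_Co minus CO ranged from -0.10 (Hyou1) to 0.34 (Trib3) in HC and from -0.22 (Ddit3) to 0.28 (Atf4) in MC. Corn oil at 6 d against 24 h called 0 of 10 in both fractions (0% of all genes in each). An unadjusted p under 0.05 (limma) was found for 1 of the 10 genes in each, Hyou1 in HC (-0.65) and Ddit3 in MC (-0.81). Of all 14217 genes, 696 in HC and 529 in MC had such a p.
Water did differ between times. At 14 d against 24 h, 4 of 10 genes were lower in hepatocytes and 0 higher, where 14.3% of all genes were called (9.43% lower and 4.88% higher). Xbp1 was lower by 0.91 (change -0.91, SE 0.18, adjusted p = 0.00147, limma) and Creld2 by 1.09 (change -1.09, adjusted p = 0.00853), which read 8.55, 8.21 and 8.83 at 24 h and 7.14, 7.44 and 7.73 at 14 d. Herpud1 was lower by 1.16 (change -1.16, adjusted p = 0.00992).
Edem1 was lower by 1.33 (change -1.33, adjusted p = 0.00933, limma), from 11.42, 11.53 and 10.33 to 9.62, 9.77 and 9.90, but its probe sets disagreed: the other 2 differed by -0.06 and 0.09. Over the mean of the 3 the change was -0.43 (adjusted p = 0.290). All 4 genes had no overlap between the times, as did Hspa5 (-0.41, adjusted p = 0.0718), where 13.7% of all genes did in that direction.
Without H2O 14 d replicate 1 Creld2 had an adjusted p of 0.0562, without H2O 24 h replicate 2 Herpud1 had 0.0591 and Edem1 0.0613, and without H2O 24 h replicate 1 Edem1 had 0.0534. In MC 17.9% of all genes were called (9.06% lower and 8.84% higher) and 2 of the 10, both lower. Edem1 changed by -1.44 (adjusted p = 0.00150, limma), again on the brightest probe set, with the others at -0.56 and 0.62. Herpud1 changed by -0.97 (adjusted p = 0.0205), a call lost without H2O 24 h replicate 1 or 3 or H2O 14 d replicate 1 (adjusted p = 0.0571, 0.0632 and 0.138). These comparisons of vehicle groups were chosen after the values had been seen.

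Across the 30 hepatocyte arrays, Pearson's r over the 15 pairs of the chaperone arm ranged from 0.20 (Sdf2l1 and Herpud1) to 0.82 (Hspa5 and Creld2) with a median of 0.55, as a description over arrays that share groups and treatments. Between Trib3 and Ddit3 it was -0.02. Trib3 had an r from -0.45 (Hyou1) to -0.28 (Edem1) with the 6 genes of the chaperone arm. In MC the 15 pairs of the chaperone arm ranged from -0.18 (Sdf2l1 and Edem1) to 0.69 (Hspa5 and Herpud1) with a median of 0.27, and Trib3 with Ddit3 had 0.26.
Of all genes outside these 10, the 5 most like the mean of the chaperone arm in HC by Pearson's r over the 30 arrays were Ero1b, an ER oxidase (0.85), Egfr (0.84), Hycc2 (0.84), Sdha (0.83) and Lpin1 (0.82). In MC they were Hsp90b1, the ER HSP90 (0.83), Pdia4 (0.79), Sipa1l2 (0.76), Ero1a (0.75) and Agpat4 (0.75). The 5 most like the mean of Trib3 and Ddit3 were Lurap1l (0.75), Aen (0.75), LOC100909675 (0.74), Rnf138 (0.74) and LOC100912041 (0.73) in HC, and Dnaja4 (0.72), Helz2 (0.69), Senp3 (0.68), Igtp (0.67) and Daxx (0.67) in MC.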

How the data were processed

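Total RNA (250 ng) of each sample was amplified with a 3' IVT kit and hybridised to 1 array, per the labels' protocols. The authors deposited log2 signals for 31042 probe sets on 60 arrays, and the submitters' processing notes name RMA, with no version. Background correction and probe summarisation by RMA compress low signals, and depth has no counterpart on arrays, so the number of arrays limits precision. Of the probe sets 20826 had 1 gene symbol in the platform annotation (20758 matched to RefSeq by identifier), 436 several and 9780 none. For each of 14217 symbols the probe set with the highest mean was kept.

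From these values, 1 mean per group was fitted in limma 3.58.1 (R 4.3.3) on the 30 arrays of a fraction, or on all 60 for contrasts between fractions, with Benjamini-Hochberg adjustment over 14217 genes and a threshold of 0.05. The fit was tested on simulated data. Contrasts followed the control group named in the labels, which is water for PB, although the treatment text names oil-treated controls. The 10 genes and the wider lists were chosen with earlier results of these data known, and their counts are descriptions. From each wider list, up to 3 called genes with the largest change were named. Same-numbered PB and H2O arrays at 14 d deviated together in both fractions (r from 0.20 to 0.64). Arrays of different number were not compared in this way, so this r does not settle that the numbers pair animals. Each other treated group had at least 1 same-numbered pair with its vehicle at or below 0.10. Between fractions, same-numbered HC and MC arrays had r above 0.10 in every pair of CO 24 h (0.14 to 0.29), H2O 14 d, PB 14 d and PB 24 h, and not in the other groups (CPA 24 h from 0.092 to 0.35). In fits over both fractions the block was shared by HC and MC arrays of a number. Alternatives were a sex term, the mean over probe sets, array weights, a filter on genes whose highest group mean was below 5, centred arrays, the replicate block, pooled corn oil groups, a hepatocyte marker covariate in MC, and leaving out each array. Promoters are those of RefSeq (GRCr8). Proteins and a genome were not used here.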

Additional observations from a re-analysis of the deposited data

Results flagged for a closer look

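Sdf2l1 in HC of CO 24 h had 1 array far from the others: replicate 3 read 7.26, with the other 4 between 7.90 and 8.12. In MC of CO 24 h, replicate 2 stood apart for Sdf2l1 (8.11, the others from 7.08 to 7.36) and for Creld2 (7.63, the others from 6.42 to 6.67). In MC of CO_Co 24 h, replicate 4 was low for Trib3 (3.95, the others from 4.74 to 4.77). These were 4 of 40 sets tested by Dixon's criterion (10 genes in each of the 4 groups with 4 or 5 arrays), where chance marks about 1 in 20.

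Effects of CPA called as different between groups by the limma test of the difference were the effect on Hyou1 at 24 h between fractions (-0.89, HC minus MC), and in HC those on Hspa5 (0.65) and Sdf2l1 (1.09) between 6 d and 24 h. These were 1 of 10 genes where 8.43% of all genes were called, and 2 of 10 where 14.5% were. Each of these calls was lost without some single arrays, as given above.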

How the results depend on the processing

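Over 230 gene results and 3730 alternatives, 3645 kept their side of the threshold, 48 lost a call and 37 gained one. Of results called in the main fit or the alternative, 0 changed sign. Results called in neither did change sign in places: Xbp1 in HC PB 14 d kept its sign in 7 of 12 alternatives. The count of the 10 genes called moved as follows, and the cause was not tested. Shares of all genes called with these alternatives are not given in this paragraph, so its counts have no background beside them. With array weights it was 1 in HC PB 24 h, 4 in HC CPA 6 d, 1 in MC PB 24 h, 1 in MC CPA 24 h, 3 and 2 for the CPA effect in HC minus MC at 24 h and 6 d, and 1 for the CPA effect between times in MC. With the mean of probe sets it was 1 in MC CPA 24 h and 1 for MC water between times. With pooled corn oil groups it was 1 in MC CPA 24 h and 3 for CPA 24 h in HC minus MC, where a sex term gave 2 and centred arrays 0. Centred arrays left 1 for the CPA effect between times in HC.

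With the replicate number as a block the count was 4 for CPA 24 h in HC minus MC and 1 for the CPA effect between times in HC. For neither did every same-numbered pair exceed an r of 0.10. It was 7 in HC CPA 24 h, 3 in HC CPA 6 d and 9 for HC minus MC, and changed no call of these genes under PB at 14 d. Shares of all genes called with the block are not given beside these counts. The block called 1036 of all genes in place of 361 in MC CPA 24 h. It was not run for CO_Co and for vehicle times.

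Leaving out single arrays gave counts of 5 to 7 in HC CPA 24 h, 1 to 3 in HC CPA 6 d, 0 to 1 in MC CPA 24 h, 0 to 2 for CPA 24 h in HC minus MC, 0 to 2 for the CPA effect between times in HC, 2 to 4 for HC water and 1 to 2 for MC water between times, and 9 for HC minus MC. Over all genes, calls ranged from 342 to 2546 in MC PB 14 d and from 57 to 993 in MC CPA 24 h. The range was 3649 to 4811 in HC CPA 24 h, 2667 to 3358 in HC CPA 6 d and 675 to 1737 for CPA 24 h in HC minus MC. The difference between arms ranged from -1.85 to -1.29 in HC CPA 24 h, from -0.91 to -0.48 in HC CPA 6 d, from -0.76 to -0.29 in HC PB 14 d, from -0.26 to 0.03 in HC PB 24 h, from -0.63 to -0.16 in MC CPA 24 h, from -0.027 to 0.18 in MC CPA 6 d, from -0.25 to 0.27 in MC PB 24 h and from -0.17 to 0.26 in MC PB 14 d. Groups of 3 arrays limit the precision.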
